A study of Homo sapiens with 4 samples.

Results

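The 10 genes described here encode S100 calcium-binding proteins: S100A2, S100A3, S100A4, S100A6, S100A10, S100A11, S100A13, S100A14, S100A16 and S100P. They were taken from the gene table by their symbols, and each symbol matched 1 of its 58735 genes. The list of symbols was drawn up with earlier results of these data known, so it may not be independent of the measured levels. All 10 had a mean level of at least 1 over the libraries and were among the 14429 genes compared.

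The table holds 4 RNA-seq libraries of colorectal cancer cells, 1 per group: adherent HCT116 cells, HCT116 spheroids, adherent cells of the line labelled LOVO and spheroids of that line. Every group is labelled wild type. The adherent cells grew in RPMI-1640 with 10% FBS and received no drug, whereas the spheroids formed over 2 weeks in a serum-free DMEM/F12 medium with growth supplements under ultralow attachment, with oxaliplatin, a platinum drug, so growth form, medium and drug cannot be told apart. The dose is given as 1 μg/ml in the text of the publication and as 1 mg/ml in the labels, which do not name the agent. With 1 library per group no value has a replicate error, so a difference between libraries is given with an interval for counting error only and without a test. The only p-values come from a linear model fit (limma) over all 4 libraries, in which lines or growth forms stood in for replicates. In bulk RNA, fewer cells of a type and less RNA per cell cannot be told apart.

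S100 proteins are small proteins with paired EF-hand motifs, the loops that hold calcium. Most form dimers, and in most, though not all, calcium opens a surface through which they bind partners such as annexins and cytoskeletal proteins. Several are also secreted and bind the receptor AGER (RAGE), and many are known from epithelia and their tumours.

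The libraries held 15483569 to 20429147 reads on genes, and 3.65% to 11.1% of the reads were mitochondrial. The labelled cell type was checked against 10 epithelial colon markers. Their summed level was 1754 and 1288 FPKM (fragments scaled by gene length and library size) in the HCT116 libraries, adherent cells before spheroids, against 326.7 and 187 FPKM in the libraries labelled LOVO. In the latter EPCAM stood at 0.930 and 1.50 FPKM and CDX2 at 0 in both, while KRT8 kept 189 and 81.7 FPKM and KRT18 122 and 98.8 FPKM. The 7 markers that passed the filter were all lower in LOVO than in HCT116 in each growth form. VIL1, CDH17 and GPA33 did not pass it and were at 0.381 FPKM or less in all 4 libraries, HCT116 included. Of 8 fibroblast markers, DCN reached 10.4 and 9.97 FPKM and LUM 31.4 and 50.4 FPKM there, while DCN was at 0 and LUM at 0 and 0.0198 FPKM in HCT116. COL3A1 was also higher in LOVO (0.811 and 5.13 FPKM) than in HCT116 (0.0072 and 0.358 FPKM). So was PDGFRB, at 1.57 and 1.17 FPKM against 0.0825 and 0.175 FPKM. The other fibroblast markers did not follow them. COL1A2, PDGFRA and THY1 were under 0.1 FPKM in all 4 libraries, and COL1A1 was higher in HCT116 spheroids (15.5 FPKM) than in either LOVO library (9.89 and 6.10 FPKM). The summed level of the 8 was 5.64 and 16.1 FPKM in HCT116 and 54.1 and 72.8 FPKM in LOVO. The libraries labelled LOVO thus went against several of the epithelial markers of their label, though KRT8 and KRT18 remained. All values for LOVO below are values of the libraries so labelled. S100A14 and S100P, as given below, differed between the lines alongside these markers, whose part in the results was not tested.

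Of the 10 genes, 9 lie on the long arm of chromosome 1 (GRCh38, 151982915 to 153631360), all read from the minus strand. S100P stands apart on the plus strand of chromosome 4, from 6693069 to 6697170. Within the 1648 kb of the chromosome 1 stretch lie 63 protein-coding genes, 16 of them S100 genes of the lists used here. None of the 47 other protein-coding genes, which include the epidermal genes FLG and HRNR, had a mean of 1 FPKM or more, the highest being 0.755 FPKM. S100A6, S100A5, S100A4, S100A3 and S100A2 follow each other, with 7.37 kb between S100A6 and S100A4 and 10.97 kb between S100A4 and S100A2. S100A16, S100A14 and S100A13 are neighbours as well, 1.11 kb and 1.80 kb apart. S100A3 lies whole inside the span of S100A4 on the same strand, because 1 of the 6 annotated S100A4 transcripts starts upstream of it. The exons of these neighbours share 0 bases.

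**Figure D1:**
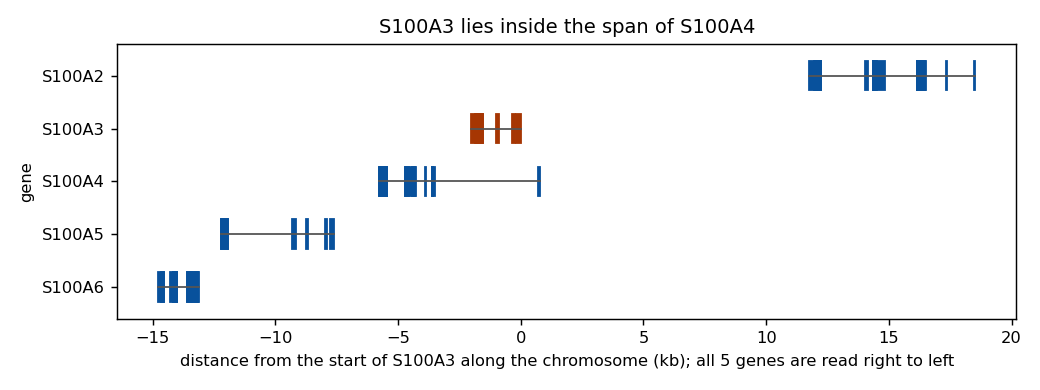
Exons (boxes) and spans (lines) of 5 neighbouring S100 genes, drawn by distance in kb from the start of S100A3. S100A3, in brown, falls in a long intron of S100A4, between exons drawn on either side of it.

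The sequence upstream of the annotated RefSeq starts (GRCh38.p14) is shown for 4 members: S100A14 and S100A11, which were the chromosome 1 members that the limma fit called between the lines, and S100A3 and S100A2, which differed most between LOVO spheroids and adherent cells. Each line runs 5′ to 3′ on the minus strand, from 250 bases before the start down to the first base outside the gene's protein-coding exons, and capitals mark a match to TGANTCA, the letters AP-1 factors are known to bind, or to GGGCGG, those bound by Sp1.
S100A14 (chr1:153616356-153616575): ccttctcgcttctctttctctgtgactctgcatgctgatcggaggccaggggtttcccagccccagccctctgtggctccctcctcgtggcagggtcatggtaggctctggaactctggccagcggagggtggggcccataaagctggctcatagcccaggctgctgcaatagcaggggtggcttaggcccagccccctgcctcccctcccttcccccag
S100A3 (chr1:153549373-153549508): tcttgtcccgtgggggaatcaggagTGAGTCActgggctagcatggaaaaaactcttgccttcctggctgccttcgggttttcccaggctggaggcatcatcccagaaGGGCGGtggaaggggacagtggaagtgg
S100A2 (chr1:153565866-153566094): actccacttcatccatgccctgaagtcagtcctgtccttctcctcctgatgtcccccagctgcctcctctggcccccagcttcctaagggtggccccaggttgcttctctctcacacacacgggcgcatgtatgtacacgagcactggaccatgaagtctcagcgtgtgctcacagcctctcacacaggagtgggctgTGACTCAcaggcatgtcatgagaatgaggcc
S100A11 (chr1:152037036-152037254): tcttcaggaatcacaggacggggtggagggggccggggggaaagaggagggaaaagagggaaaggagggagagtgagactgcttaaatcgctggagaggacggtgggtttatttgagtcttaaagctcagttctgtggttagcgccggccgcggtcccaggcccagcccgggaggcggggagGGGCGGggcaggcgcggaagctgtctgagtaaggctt
The 10 members had 14 annotated windows, S100A13 having 3 and S100A2 and S100A16 2 each. A match to TGANTCA was found in 2 of the 14 windows, at 225 to 219 bases before the start of S100A3 and at 52 to 46 bases before that of S100A2, against 6.57% of 35116 promoters searched on both strands. GGGCGG was found in 6 of the 14 windows and 42.6% of all promoters. The letters TATAA lay within 40 bases of the start in 5 of the 14 windows (of S100A4, S100A6, S100A14 and S100P and 1 of the 3 of S100A13), in stretches not shown above, against 5.48% of all promoters. These are matches of letters and say nothing of binding.

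The summed level of the 10 genes was 1120 FPKM (adherent) and 1400 FPKM (spheroids) in HCT116 and 1631 and 1921 FPKM in LOVO, from 0.357% to 0.729% of all FPKM. A different gene led in different libraries. S100A6, known as calcyclin, led in both HCT116 libraries and held 46.4% and 55.7% of the sum, S100A4 led in adherent LOVO cells and S100A11 in LOVO spheroids. The top 3 genes held 74.5% to 82.1% of the sum, and S100A6 was among them in each library. FPKM is scaled by gene length, here all annotated exonic bases of a gene (2216 for S100A13, 680 for S100A11). That length can exceed the length of the transcripts present, by a different factor for each gene. Levels, orders and shares can therefore be compared between genes only roughly.

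**Figure D2:**
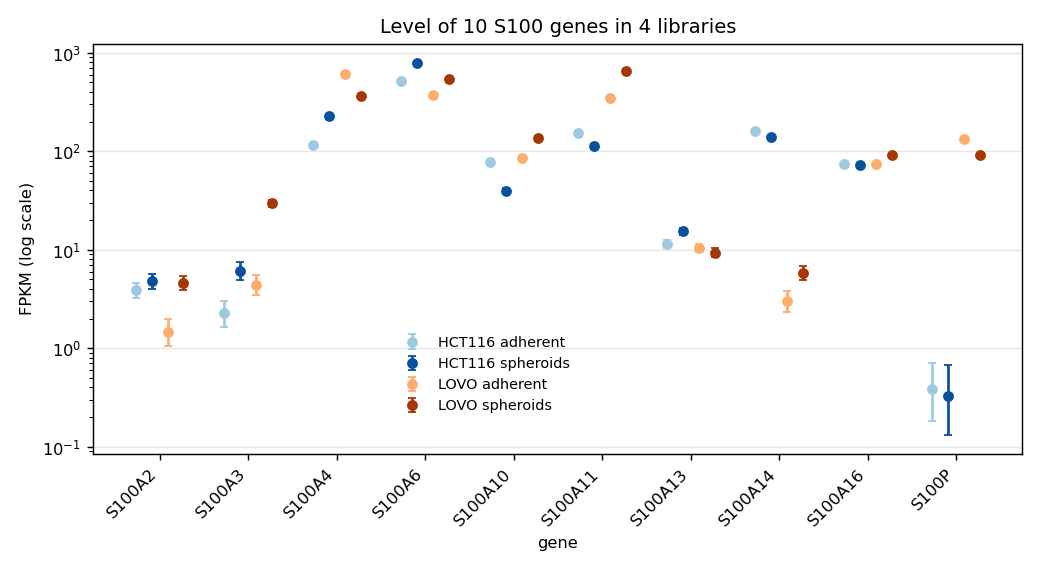
FPKM (log scale) of each gene in the 4 libraries, points being libraries and bars 95% exact Poisson counting intervals. S100A6 lies between 369 and 780 FPKM throughout, while S100P lies under 1 FPKM in HCT116 and at 134 and 91.2 FPKM in LOVO.

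In adherent HCT116 cells the order of levels was S100A6, S100A14, S100A11, S100A4, S100A10, S100A16, S100A13, S100A2, S100A3 and S100P. The counting intervals overlapped between S100A14 and S100A11 and between S100A10 and S100A16. In HCT116 spheroids S100A4 moved up to the second place and S100A16 passed S100A10, and the intervals overlapped only between S100A3 and S100A2. In adherent LOVO cells the order was S100A4, S100A6, S100A11, S100P, S100A10, S100A16, S100A13, S100A3, S100A14 and S100A2, with overlaps of S100A6 with S100A11 and of S100A3 with S100A14. In LOVO spheroids it was S100A11, S100A6, S100A4, S100A10, S100A16, S100P, S100A3, S100A13, S100A14 and S100A2, with overlaps of S100A16 with S100P and of S100A14 with S100A2. Counting error does not cover the spread between cultures, so genes further apart may still not differ.

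The comparison of spheroids with adherent cells asked how the S100 genes differ in cells grown as drug-treated spheres. In HCT116, S100A3, S100A4, S100A6 and S100A13 were higher in the spheroids and S100A10, S100A11 and S100A14 lower. In LOVO, 7 genes were higher in the spheroids, S100A3 by the most, and S100A4 and S100P were lower. These statements mean that the 95% exact (Clopper-Pearson) counting interval of the log2 ratio lay on 1 side of 0. The interval lay above 0 for 4 members and below 0 for 3 in HCT116, where 27.2% and 35.0% of all genes compared did so. In LOVO it lay above 0 for 7 and below 0 for 2, against 32.1% and 42.0% of all genes. Such intervals are narrower for genes with more reads, and most members have many. These shares of all genes, and those given below, are not matched for read number. The median difference of log2(FPKM + 1), spheroids minus adherent cells, was 0.10 for the members in HCT116 (all genes -0.03) and 0.62 in LOVO (all genes -0.06). The pseudocount of 1 understates differences of genes with low FPKM. The study's screen took edgeR fold changes past a log value of 2 together with a p-value cut. Here the same size was applied to differences of log2(FPKM + 1) without a p-value, so the counts are not comparable with the study's. Past 2 were 0 members above and 0 below in HCT116 (0.201% and 0.506% of all genes), and 1 above and 0 below in LOVO (1.81% and 0.943%). With TPM, the latter background split moved from 261 genes above and 136 below to 661 and 187. Past 1 there were 1 above and 0 below in HCT116 (2.19% and 3.33% of all genes) and 2 above and 0 below in LOVO (8.57% and 7.85%).

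S100A3, a zinc- and calcium-binding protein known from the hair cuticle, had 2.26 FPKM in adherent cells and 6.11 FPKM in spheroids of HCT116, and 4.38 and 29.5 FPKM in those of LOVO. The spheroids were higher in both lines, and the LOVO spheroids stood above the 3 other libraries. The difference of log2(FPKM + 1) was 1.12 in HCT116 and 2.50 in LOVO, where 131 of the 14429 genes had a larger one. As a plain ratio the spheroids held 2.70 times the adherent level in HCT116, from 98 and 44 reads (log2 ratio 1.43, interval 0.91 to 1.98), and 6.74 times in LOVO, from 567 and 75 reads (2.75, 2.40 to 3.12). Of the 6 annotated S100A4 transcripts, 1 spans S100A3. Whether reads from unspliced RNA of that transcript enter the S100A3 count was not tested. S100A4 as a whole gene was higher in spheroids of HCT116 and lower in those of LOVO. The level of the spanning transcript alone was not measured.

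S100A4, a metastasis-associated protein that binds non-muscle myosin, had 117 and 229 FPKM in HCT116, adherent cells before spheroids, and 602 and 362 FPKM in LOVO. All 4 counting intervals lay apart, with both LOVO libraries above both HCT116 libraries. Between growth forms the gene went opposite ways in the lines, by 0.97 in HCT116 and -0.73 in LOVO on the log2(FPKM + 1) scale. MYH9, its myosin heavy chain partner, had 96.1, 63.9, 74.7 and 57.7 FPKM in the same order of libraries and was lower in the spheroids of both lines.

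S100A6 had 520 FPKM in adherent cells and 780 in spheroids of HCT116, and 369 and 536 FPKM in those of LOVO. It was higher in the spheroids of both lines by similar amounts, with log2 ratios of 0.59 (0.55 to 0.62) in HCT116 and 0.54 (0.50 to 0.59) in LOVO, and these intervals overlap. Its ubiquitin-ligase adaptor partner CACYBP, the calcyclin-binding protein, was lower in the spheroids of both lines, by -0.60 and -0.67 on the log2(FPKM + 1) scale. ANXA11, an annexin that also binds S100A6, had differences of -0.55 and -0.40. Of the 971 exonic bases of S100A6, 23 overlap a gene on the other strand.

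S100A2, a mainly nuclear protein, had 3.88 and 4.79 FPKM in HCT116 and 1.46 and 4.63 FPKM in LOVO, spheroids last. Adherent LOVO cells stood below the 3 other libraries, whose intervals overlapped. The log2 ratio between growth forms was 0.30 (-0.07 to 0.67) in HCT116, so no difference was detectable at this depth, and 1.67 (1.16 to 2.20) in LOVO.

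S100A10 and S100A11 are the annexin partners of the family: S100A10 forms a tetramer with ANXA2 and carries plasminogen at the cell surface, and S100A11 binds ANXA1. S100A10 had 77.0 and 39.6 FPKM in HCT116, spheroids last, but 84.5 and 138 FPKM in LOVO. S100A11 had 154 and 112 FPKM in HCT116 and 349 and 652 FPKM in LOVO, adherent cells first. Both genes were thus lower in spheroids of HCT116 and higher in those of LOVO, by -0.94 and 0.70 for S100A10 and -0.45 and 0.90 for S100A11 on the log2(FPKM + 1) scale.

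ANXA2 was lower in spheroids of either line, with 186 and 121 FPKM in HCT116 and 103 and 63.1 FPKM in LOVO. In LOVO, S100A10 was therefore higher and ANXA2 lower in the spheroids. ANXA1 had 85.1 and 61.2 FPKM in HCT116 and 46.5 and 53.0 FPKM in LOVO and went the same way as S100A11 in each line. AHNAK, the giant scaffold protein that binds the complex of S100A10 and ANXA2, had differences of -0.40 and 0.52, with the same signs as S100A10. PLAT, the tissue plasminogen activator, had 2.65 and 4.84 FPKM in HCT116 and 0.0590 and 3.64 FPKM in LOVO, where its difference of 2.13 rested on 7 reads in the adherent cells and 485 in the spheroids.

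S100A13, which helps to export FGF1 and IL1A by a route outside the secretory pathway, had 11.5 and 15.4 FPKM in HCT116 and 10.4 and 9.35 FPKM in LOVO. Its largest level was 1.65 times its smallest. Its LOVO log2 ratio of -0.16 had an interval of -0.36 to 0.04, and with TPM its LOVO difference changed sign, from -0.14 to 0.05. Its exons overlap those of S100A1 on the other strand (10.6% of its exonic bases) and of AL162258.1 on the same strand (24.2%), both at less than 1 FPKM. SYT1, a further part of the export complex, had 17.5 and 25.4 FPKM in HCT116 but 0.129 and 0.184 FPKM in LOVO. IL1A had 0.809 and 0.561 FPKM in HCT116 and 0.945 and 3.65 FPKM in LOVO and was highest in LOVO spheroids, while FGF1 was under 1 FPKM in every library.

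S100A14, an epithelial S100 protein, had 161 and 141 FPKM in HCT116 and 3.01 and 5.80 FPKM in LOVO. The spheroids were slightly lower in HCT116 (log2 ratio -0.20, -0.26 to -0.13) and higher in LOVO (0.94, 0.52 to 1.38), at levels of 69 and 149 reads. S100A16, the broadly expressed member of the family, had 73.9 and 71.7 FPKM in HCT116 and 73.5 and 91.8 FPKM in LOVO. It spanned the least of the 10 genes, a factor of 1.28, and its HCT116 ratio of -0.04 had an interval of -0.13 to 0.04.

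S100P, a ligand of AGER known for high levels in gastrointestinal tumours, had 0.383 and 0.326 FPKM in HCT116, from 10 and 7 reads, and 134 and 91.2 FPKM in LOVO, from 3069 and 2350 reads. In LOVO the spheroids were lower, with a log2 ratio of -0.55 (-0.63 to -0.47). In HCT116 the ratio of -0.24 had an interval of -1.87 to 1.31, so a difference was not detectable at this depth. AGER itself was low in all 4 libraries, at 1.21 to 2.35 FPKM.

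**Figure D3:**
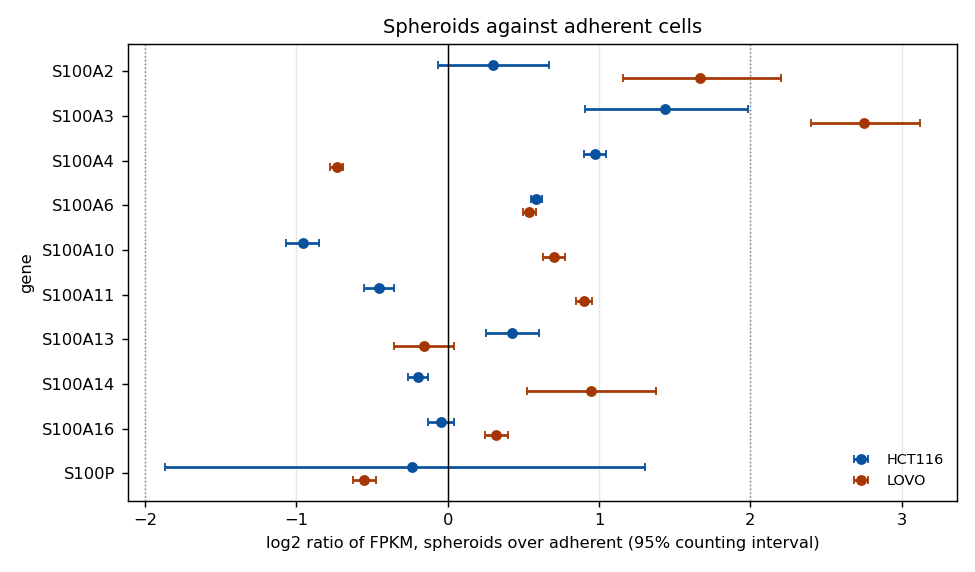
Log2 ratio of FPKM, spheroids over adherent cells, for each gene in HCT116 (blue) and LOVO (brown), with 95% exact counting intervals and dotted lines at -2 and 2. S100A4, S100A10, S100A11 and S100A14 have intervals on opposite sides of 0 in the lines.

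The differences of 6 members went opposite ways in the lines, against 35.8% of all genes compared. For S100A4, S100A10, S100A11 and S100A14 the counting intervals lay on opposite sides of 0. By point value S100A2, S100A3 and S100A6 were higher in spheroids of either line and S100P was lower in both. In a limma fit over all 14429 genes that took each line as a replicate and so had 1 residual degree of freedom, 0 members and 0 genes in all (0% in each direction) had a Benjamini-Hochberg adjusted p under 0.05 between growth forms, against 1545 genes at an unadjusted p under 0.05. The member with the smallest limma adjusted p was S100A3, with a mean difference of 1.81 ± 0.40 (SE) on the log2(FPKM + 1) scale and an adjusted p of 0.462 (unadjusted p = 0.0069).

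The comparison of the lines asked which S100 genes each line uses. It read the same 4 libraries as the comparison of growth forms, so its values are not independent of those above. S100P was far higher and S100A14 far lower in LOVO than in HCT116, in adherent cells and in spheroids alike. S100A3, S100A4, S100A10 and S100A11 were higher in LOVO in each growth form, and S100A6 was lower. For S100A10 in adherent cells the difference was only 0.13, near the median of all genes, and 0.06 when centred on that median. Adherent cells had 2 members above a log2 difference of 2 and 1 below -2 (5.26% and 5.59% of all genes), and spheroids 3 above and 1 below (5.68% and 4.71%). Past 1 they had 3 above and 1 below in adherent cells (17.4% and 16.4% of all genes) and 4 above and 1 below in spheroids (17.7% and 15.0%). Counting intervals lay above 0 for 5 members and below for 3 in adherent cells, against 44.9% and 38.2% of all genes, and above for 6 and below for 3 in spheroids, against 42.8% and 39.5%. The members' median was 0.06 in adherent cells (all genes 0.07) and 0.51 in spheroids (all genes 0.04).

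For S100P, 13 of the 14429 genes had a larger difference in adherent cells and 25 in spheroids. LOVO held 349 times the HCT116 level in adherent cells (log2 ratio 8.45, interval 7.57 to 9.51) and 280.3 times in spheroids (8.13, 7.09 to 9.45), the wide intervals coming from the 10 and 7 HCT116 reads. S100A14 was 53.5 times higher in HCT116 in adherent cells and 24.3 times in spheroids, and 16 and 39 genes had a lower difference. For the lines, the limma fit took the adherent and spheroid libraries of a line as replicates. In it, S100P had a mean difference of 6.36 ± 0.26 (SE) with a limma Benjamini-Hochberg adjusted p of 0.00369. S100A14 had one of -4.86 ± 0.33 with a limma adjusted p of 0.00452. EZR, the membrane-cytoskeleton linker that S100P binds, went opposite to S100P, at 809 and 576.5 FPKM in HCT116 and 87.4 and 47.0 FPKM in LOVO. The epithelial markers were lower together with S100A14, with negative differences for all 7 of the 10 that passed the filter in each growth form, and EPCAM was among the genes most like S100A14 in pattern.

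S100A11 was the third member with a limma adjusted p under 0.05, with 1.86 ± 0.43 (SE) and an adjusted p of 0.0406, a call that was lost without the growth form as a covariate and with a pseudocount of 0.1. Without a filter on low values, limma called none of the 3. In all, 12.6% of the genes were called higher and 12.1% lower in LOVO, so 2 members higher and 1 lower of 10 lie near that background. S100A4 (1.51 ± 0.49, limma adjusted p = 0.0869) and S100A3 (1.41 ± 0.40, limma adjusted p = 0.0622) missed the threshold. The difference of S100A4 was 2.36 in adherent cells and 0.66 in spheroids, while those of S100A3 (0.72 and 2.10), S100A10 (0.13 and 1.77) and S100A11 (1.18 and 2.53) were larger in spheroids. S100A6 had -0.49 and -0.54. For S100A16 the adherent difference of -0.01 became 0.04 with TPM, and for S100A2 the spheroid difference of -0.04 became 0.18 with TPM and 0.01 with TMM-style scaling. The same 2 genes, at these growth forms, had counting intervals that held 0.

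**Figure D4:**
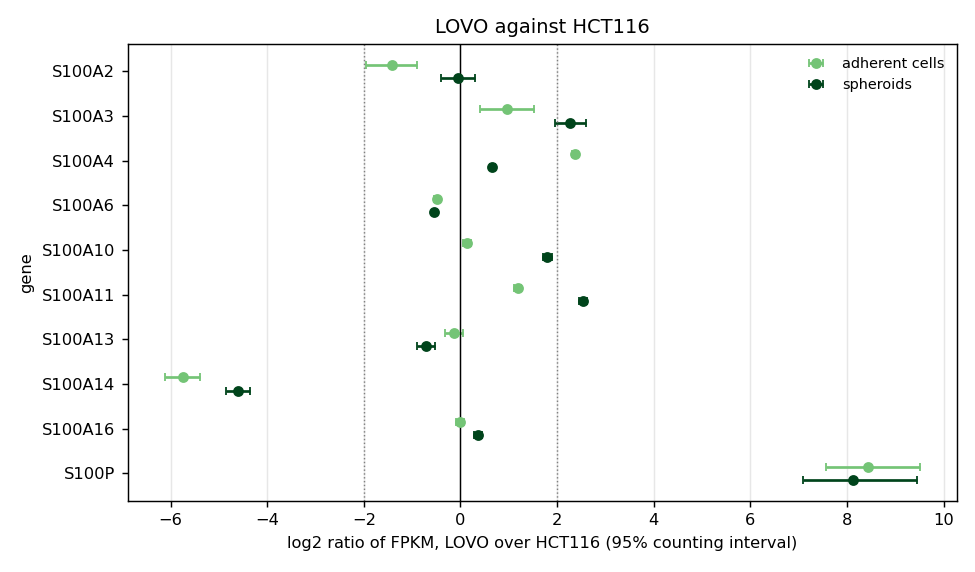
Log2 ratio of FPKM, LOVO over HCT116, for each gene in adherent cells (light green) and spheroids (dark green), with 95% exact counting intervals and dotted lines at -2 and 2. S100P lies near 8 in each growth form and S100A14 between -5.74 and -4.60.

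Of 11 other S100 genes, 2 passed the filter. S100A5, the gene beside S100A4, had 2.44 and 3.72 FPKM in HCT116 and 0.782 and 2.54 FPKM in LOVO, spheroids last. S100A9, a subunit of calprotectin known from neutrophils and monocytes, had 0 and 0.103 FPKM in HCT116, from 0 and 1 read, and 0.0966 and 7.84 FPKM in LOVO, from 1 and 91 reads, and was detected above the floor of 3 reads only in LOVO spheroids. Its calprotectin partner S100A8 did not pass the filter but had 23 reads (1.14 FPKM) in LOVO spheroids and 0 elsewhere, at least 6.83-fold higher than in adherent LOVO cells against a floor of 3 reads in that library. None of 8 myeloid markers passed the filter, PTPRC stood at 0 to 0.0107 FPKM, and the summed myeloid level was 0.344 FPKM in the adherent and 2.10 FPKM in the spheroid library of LOVO, most of the latter being CD14 at 1.79 FPKM. S100A7A, S100A7L2, S100A12 and S100Z were at 0 reads in every library, and none of 7 S100-fused-type genes passed the filter.

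Among 13 annexins, 11 were compared. Their median difference between spheroids and adherent cells was -0.08 in HCT116 and -0.54 in LOVO, and the counting intervals of 7 in HCT116 and 9 in LOVO lay below 0, against 1 and 2 above. Of all genes, 35.0% in HCT116 and 42.0% in LOVO lay below 0 and 27.2% and 32.1% above. In LOVO, ANXA3 was at -1.17 and ANXA9 at 1.15. Between the lines, ANXA8 and ANXA8L1, near-identical copies between which reads may be split, were higher in LOVO by 2.47 and 2.69 in adherent cells, and ANXA3 by 1.30. ANXA8, ANXA8L1 and ANXA9 were higher in LOVO spheroids than in HCT116 spheroids by 1.78, 1.76 and 1.22. ANXA6 was lower in LOVO spheroids than in HCT116 spheroids, by -1.24.

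Of 16 further partners and receptors, 13 were compared, with medians of -0.09 in HCT116 and -0.03 in LOVO for spheroids minus adherent cells. Past 1 were 0 in HCT116. In LOVO 2 were above 1, PLAT and IL1A, and IQGAP1 was below -1, at -1.05. IQGAP1, a scaffold protein that S100P binds, had 26.4 and 25.8 FPKM in HCT116 and 77.8 and 37.1 FPKM in LOVO. BSG, a cell-surface receptor of S100A9, was higher in LOVO spheroids than in HCT116 spheroids by 1.49, and SUGT1, a partner of S100A6, was lower by -1.12. Of 13 calmodulins and other small EF-hand proteins, 12 were compared, with medians of -0.21 in HCT116 and -0.43 in LOVO. In LOVO, SRI at -1.36 and CAPNS1 at -1.12 were below -1, and none was above 1. Between the lines, SRI, PDCD6, CETN2 and CHP1 were above 1 in adherent LOVO cells and CALM3 and CAPN1 below -1, while in spheroids CIB1 joined SRI, PDCD6 and CETN2 above 1 and CAPN1 was below -1.

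**Figure D5:**
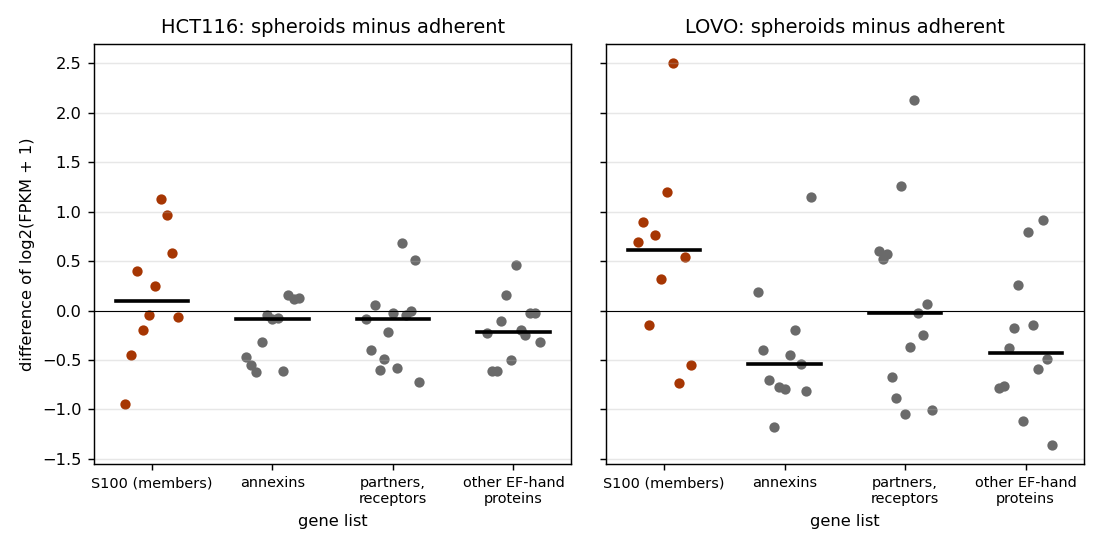
Difference of log2(FPKM + 1), spheroids minus adherent cells, for the genes of 4 lists that passed the filter, in HCT116 (left) and LOVO (right), with a bar at each median. In LOVO the median of the 10 S100 genes lies at 0.62 and that of 11 annexins at -0.54.

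For the 5 members that spanned at least 2 on the log2 scale, the genes with the most similar pattern were found by the distance between centred log2(FPKM + 1) values over the 4 libraries. With 4 points many genes can look alike, so these are descriptions. S100A3 was nearest to the chemokine CCL26 (distance 0.13), the integrin ITGB8 and the lysyl oxidase LOXL2, and S100A4 to FLOT1, DHRSX and CYB5D2. S100A11 was nearest to ISG15, VEGFA and TRAF2, and S100P to IGFBP4 (0.11), PICSAR and NPTX1. S100A14 was nearest to ST14, an epithelial membrane protease (0.18), followed by NGFR and EPCAM. EPCAM had 85.6 and 79.3 FPKM in HCT116.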

How the data were processed

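RNA-seq of 4 libraries, 1 per group, was read from the gene table in which the authors deposited FPKM. The labels name the mouse builds GRCm38 and mm10, but all 58735 gene IDs match human GENCODE 29 (58724 with the same GRCh38 coordinates). The aligner, counter and strandedness are not given in the sources used here. Multiplied by gene length, 100% of the FPKM were whole reads (tolerance 0.001), with implied library sizes of 0.907 to 1.09 times the reads on genes. Strand and multimapping could affect S100A6, S100A11 and S100A13, which share bases with other genes.

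Genes whose FPKM averaged 1 or more were compared as differences of log2(FPKM + 1), with calls past 2 or 1. Intervals at the 95% level (Clopper-Pearson for ratios, exact Poisson for levels) and the floor of 3 reads cover counting error only. A limma 3.58.1 fit (R 4.3.3, trend, Benjamini-Hochberg) with line and growth form as terms had 1 residual degree of freedom. That residual is the difference between the lines in their growth-form change, so its p-values do not measure a spread between replicate cultures. On simulated data over 14429 genes with 200 changed 4-fold, limma recovered 193 with 72 false calls between growth forms and 198 with 63 between lines. About 27.2% and 24.1% of the calls in the simulation were false. It gave all genes the same spread between libraries and no growth-form effect that differed between lines. In the real data 35.8% of genes went opposite ways in the lines, so these rates may not hold there. Tables were made with Python 3.11.15, pandas 2.3.3 and scipy 1.17.1. The members and lists were chosen with earlier results of these data known. Named were all members, listed genes past 1 in any comparison or direct partners of a member, and the 3 genes nearest in pattern to each member spanning at least 2. A listed partner is not reported here. Alternatives were other pseudocounts, filters, scalings, thresholds and gene types. Upstream sequences came from RefSeq (GRCh38.p14), and all 10 members matched.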

Additional observations from a re-analysis of the deposited data

Results flagged for a closer look

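Between spheroids and adherent cells, 6 S100 genes had differences of opposite sign in the lines. The change in LOVO minus that in HCT116, on the log2(FPKM + 1) scale, was -1.70 for S100A4, 1.64 for S100A10, 1.35 for S100A11 and 0.96 for S100A14, whose counting intervals lay on opposite sides of 0. It was -0.54 for S100A13 and 0.36 for S100A16, for which the interval of 1 line held 0. With 1 library per group the difference between the lines was not tested.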

How the results depend on the processing

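The labels give no replicate numbers and each group has 1 library, so no block by replicate number could be fitted and no replicate left out. The limma fit paired the growth forms within each line, and without the line as a term 163 genes had an unadjusted p under 0.05 between growth forms, against 1545. Of 40 member differences, 37 kept their sign under 8 settings, and the exceptions are given in the report. Filters and gene types only choose which genes are counted and could not change a sign, and the stricter filter left out S100A2. Only pseudocounts, TPM, TMM-style scaling and centring on the median could change one. At a threshold of 1 in place of 2, 1 member was above it in HCT116 spheroids and 2 in LOVO spheroids. With TPM the median of all genes moved from -0.06 to 0.10 between LOVO spheroids and adherent cells and from 0.04 to 0.26 between the lines' spheroids, so differences under these sizes have no firm sign. In the limma comparison of the lines, 3564 genes were called, against 1887 with a mean FPKM of at least 5 and 0 without a filter, where 0 members were called. With a pseudocount of 0.1 and, separately, without the covariate, 2 of the 3 members were called, S100A11 being lost. S100A10 passed 2 between the lines' spheroids with TPM (2.02 against 1.77). Between growth forms, 0 genes were called under each of 7 alternatives. Counts of all genes past 2 moved by more than 1.5 times under pseudocounts, TPM and filters. Above and below 2 in size, they were 29 and 73 in HCT116 spheroids (128 and 184 with a pseudocount of 0.1, 221 and 237 with 0.01, 80 and 129 with TPM, 13 above with a mean FPKM of at least 5 or protein-coding genes only). In LOVO spheroids they were 261 and 136 (748 and 274, 950 and 319, 661 above with TPM, 156 above with the stricter filter). Between adherent cells of the lines they were 759 and 807 (1304 and 1602, 1380 and 1684, 1180 and 1365 with TPM, 407 below with the stricter filter), and between spheroids 819 and 679 (1396 and 1255, 1483 and 1317, 1489 above with TPM, 544 and 302 with the stricter filter). The causes were not tested. Depth limits S100P in HCT116 and the S100 genes under 3 reads.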
